A study of Mus musculus with 5 samples.

Results

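Smooth muscle contractile genes were followed in the esophagus of mice that make the type 2 cytokine IL-13 on demand. The 10 genes Acta2, Actg2, Myh11, Cnn1, Tagln, Des, Smtn, Lmod1, Mylk and Itga8 were chosen by name, and every probe set annotated with 1 of these symbols and no other was taken. This gave 17 of the 45101 probe sets of the Affymetrix Mouse Genome 430 2.0 array. Both groups carry the CC10-rtTA/tetON-IL-13 transgenes in the FVB/N background and were 3 to 4 months old. The Dox group (n = 3 arrays) was fed doxycycline, which switches the IL-13 transgene on, and the NoDox group (n = 2 arrays) had a regular diet. The CC10 promoter is active in club cells of the airway, so the transgene is not aimed at the esophagus. No doxycycline-fed mice lacking the transgenes were analysed here, and the diet cannot be told apart from IL-13. Nor do the labels tie each array to an animal of its own. The p-values therefore measure the spread between these arrays, which may be technical.

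Smooth muscle contracts when calcium activates myosin light chain kinase, which phosphorylates the light chain of smooth muscle myosin and lets it pull on filaments of smooth muscle actin. Calponin, transgelin, smoothelin and leiomodin bind or build the actin filaments, desmin links the contractile apparatus to the cell's scaffold, and integrins tie the cell to the matrix. In the mouse the outer muscle coat of the esophagus is largely striated, while smooth muscle lies in the muscularis mucosae and in vessel walls. IL-13 is known for raising the contractility of airway smooth muscle, and esophageal remodelling is a feature of eosinophilic esophagitis.

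Most smooth muscle probe sets had lower values in Dox, and none passed the threshold over all probe sets. Of the 17 probe sets, 14 had a log2 fold change under 0, against 56.4% of all probe sets, and their median was -0.33, against -0.08 for all probe sets. The values ran from -1.50 for a probe set of Mylk to 0.83 for a probe set of Itga8. In 10 probe sets the 3 Dox arrays lay below both NoDox arrays, an arrangement found in 19.7% of the 45037 probe sets tested. In 1 probe set, of Itga8, they lay above both, as in 12.4% of all, and in the other 6 the groups overlapped. With quantile normalization the log2 fold changes of several bright probe sets lay nearer to no change. Cnn1 stood at -0.61, Myh11 1448962_at at -0.55, Mylk 1425505_at at -0.36 and Smtn at -0.10. Without it they stood at -0.79, -0.71, -0.53 and -0.31. Farther below 0 with it were Tagln (-0.48 against -0.45), Lmod1 (-0.40 against -0.38), Myh11 1418122_at (-1.20 against -1.15) and Acta2 1456658_at (-0.15 against -0.14).

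Tested with limma across the array, 0 of 17 were past an adjusted p of 0.05 in either direction. Over all probe sets 256 probe sets (0.568%) were higher and 217 (0.482%) lower, a split that became 316 to 114 with quantile normalization and 296 to 139 with median centring. At an unadjusted p under 0.05, 6 members were lower (8.63% of all probe sets) and 1 was higher (5.38%). With 1 probe set for each of 18193 genes, 1 of the 10 members passed, Itga8, which was higher. This count was 4 without Dox replicate 2, where Actg2, Myh11 and Cnn1 also passed as lower, 3 with array weights (Myh11 and Cnn1, lower), and 2 with the level filter (Cnn1, lower). It was 0 without Dox replicate 1, without either NoDox array, and with each other variance trend or none. In that fit 1.34% of genes were higher and 1.12% lower. An exact permutation test of 3 arrays against 2 cannot give a p below 0.1, so none was run. The p-values of single probe sets rest on limma's variance model. In whole tissue, fewer smooth muscle cells and less of an RNA per cell cannot be told apart.

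**Figure D1:**
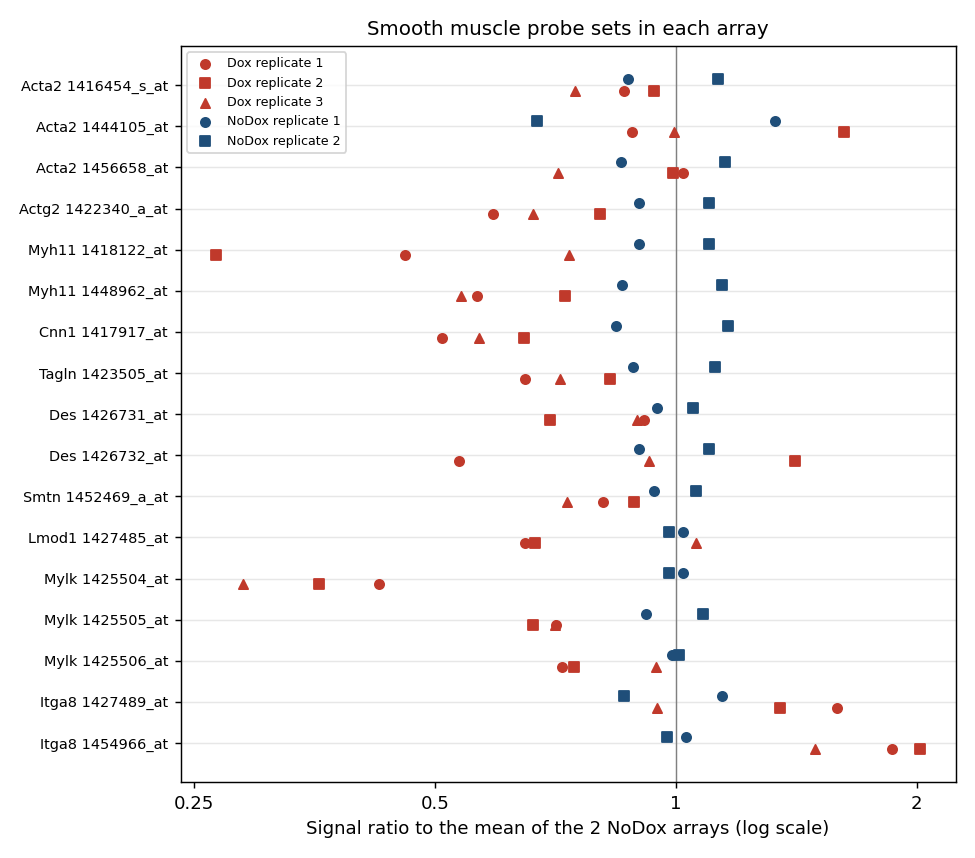
Signal relative to the NoDox mean, as a ratio on a log scale, for each of the 17 smooth muscle probe sets, with 1 point per array, red for Dox and blue for NoDox, and a symbol for each replicate number. In 10 probe sets the 3 red points lie left of both blue points, and in Itga8 1454966_at they lie right of them, between 1.49 and 2.02.

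Acta2 encodes smooth muscle alpha-actin, the main actin of vascular smooth muscle and of myofibroblasts, and its promoter holds a pair of boxes that bind serum response factor. They are known as CArG boxes and are shown here because they are a classic example of how smooth muscle genes are switched on together. RefSeq promoter windows (GRCm38.p6) were at hand for 7 of the 10 genes, Acta2, Des, Lmod1, Itga8, Cnn1, Smtn and Mylk. Each window has 300 bases, of which 250 lie before the start site. The strict CArG box has CC, then 6 bases that are each A or T, then GG, a frame that reads the same on both strands. It was in 0 of the 7 windows and in 1.63% of 32851 windows of this length. With at least 5 of the 6 middle bases A or T, a form searched after the strict one, matches were in 1 of the 7, Acta2, and in 9.98% of all windows. The first bases of the Acta2 matches lie 84 and 34 bases before the annotated start. The stretch that holds them is chr19:34255378-34255477 on the minus strand, printed 5′ to 3′ with the matches in capitals.
Acta2: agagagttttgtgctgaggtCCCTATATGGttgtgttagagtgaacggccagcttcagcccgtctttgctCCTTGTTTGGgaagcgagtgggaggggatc
A match describes the letters only, and no binding was measured.

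The abundant Acta2 probe set 1416454_s_at had ratios of 0.860, 0.940 and 0.748 in Dox replicates 1, 2 and 3, against 0.870 and 1.13 in NoDox replicates 1 and 2. Dox replicate 2 lay between the NoDox arrays and the groups overlapped. Its log2 fold change was -0.23 ± 0.17 (SE; 95% interval -0.60 to 0.15; adjusted p = 0.594, limma with Benjamini-Hochberg adjustment over all probe sets, as for all adjusted p below unless stated). The suffix of its name means that its probes can match RNAs of other genes, and the actins share much of their sequence. Probe set 1456658_at of Acta2 gave 1.02, 0.992 and 0.713 in Dox against 0.853 and 1.15, again with overlap, and a log2 fold change of -0.14 ± 0.48. Probe set 1444105_at gave 0.880, 1.62 and 0.995 in Dox, but its NoDox arrays lay at 1.33 and 0.670 and enclosed 2 of the 3 Dox arrays. Its log2 fold change of 0.25 ± 0.56 had a 95% interval of -1.02 to 1.52. None of the Acta2 probe sets separated the groups.

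Actg2 encodes the gamma actin of visceral smooth muscle. Its probe set 1422340_a_at had ratios of 0.591, 0.804 and 0.662 in Dox against 0.899 and 1.10 in NoDox. All Dox arrays lay below both NoDox arrays, and Dox replicate 2 was the nearest to them. The log2 fold change was -0.55 ± 0.17 (95% interval -0.94 to -0.16), or 68.4% of the NoDox level, and did not pass over all probe sets (unadjusted p = 0.0109, adjusted p = 0.200). It ranged from -0.70 to -0.40 with each array left out in turn.

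Myh11 encodes the heavy chain of smooth muscle myosin, the most specific marker of the lineage. Its probe set 1448962_at stood at 0.564, 0.727 and 0.539 in Dox and at 0.857 and 1.14 in NoDox. The groups did not overlap, and the gap between Dox replicate 2 and NoDox replicate 1 was smaller than that between the 2 NoDox arrays. The log2 fold change of -0.71 ± 0.19 (95% interval -1.14 to -0.28) had an unadjusted p of 0.00440 and an adjusted p of 0.136. The dimmer probe set 1418122_at, designed from the same sequence record, gave 0.459, 0.266 and 0.734 in Dox against 0.898 and 1.10. Its mean was lower still, at -1.15, but the Dox arrays were spread more widely and the SE was 0.62 (adjusted p = 0.454). In Dox replicate 2 it stood 1.45 log2 units below the first probe set, the difference being -1.45, and in Dox replicate 3 it stood 0.45 above it.

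Mylk encodes a long non-muscle form of myosin light chain kinase and, from start sites inside the gene, the shorter smooth muscle kinase and the protein telokin. Its 3 probe sets were designed from 1 sequence record, and all had the Dox arrays below both NoDox arrays. Probe set 1425504_at, much the dimmest of the 3, had ratios of 0.425, 0.358 and 0.288 in Dox against 1.02 and 0.980 in NoDox. Its Dox mean was the lowest among the members. Its NoDox arrays lay close together and far from every Dox array. The log2 fold change was -1.50 ± 0.32 (95% interval -2.23 to -0.77), or 2.84-fold lower, and narrowly missed the threshold (unadjusted p = 0.00118, adjusted p = 0.0759). It passed with the 25% of probe sets of lowest level left out (adjusted p = 0.0406), with array weights (0.0460) and with the trend on the NoDox level (0.0452). It did not pass with no variance trend (0.262), with the trend on the mean log2 ratio (0.537) or with the replicate block (0.102). Without each Dox array in turn its adjusted p ran from 0.0931 to 0.189. The log2 fold change was -1.48 without NoDox replicate 1 and -1.53 without NoDox replicate 2.

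The other Mylk probe sets, both brighter, showed smaller differences. Probe set 1425505_at gave 0.708, 0.663 and 0.705 in Dox against 0.917 and 1.08, with the narrowest spread of any member in Dox (SD of 0.05 on the log2 scale, n = 3). Its log2 fold change was -0.53 ± 0.14 (adjusted p = 0.134). Probe set 1425506_at gave 0.720, 0.745 and 0.943 in Dox against 0.988 and 1.01, so that Dox replicate 3 lay just under the NoDox arrays, and a log2 fold change of -0.33 ± 0.16 (adjusted p = 0.397). Within each Dox array 1425504_at stood below 1425505_at, by log2 differences of -0.74, -0.89 and -1.29, while in NoDox the differences were 0.15 and -0.14. Which transcripts each probe set reads was not examined, and the difference between them was not tested.

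Cnn1 encodes calponin, a thin filament protein that restrains myosin and marks differentiated smooth muscle. Its probe set 1417917_at had ratios of 0.510, 0.646 and 0.568 in Dox against 0.842 and 1.16 in NoDox, with no overlap. On the log2 scale the change was -0.79 ± 0.18 (95% interval -1.19 to -0.39), or 1.73-fold lower, with an adjusted p of 0.0863 over all probe sets and 0.0567 with 1 probe set per gene. Leaving out NoDox replicate 2 brought the value to -0.56 and leaving out NoDox replicate 1 to -1.02.

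Tagln encodes transgelin, an actin-binding protein used as an early marker of smooth muscle. Its probe set 1423505_at gave 0.648, 0.826 and 0.716 in Dox against 0.883 and 1.12 in NoDox, a separation with a small gap. Dox over NoDox came to -0.45 ± 0.16 on the log2 scale (95% interval -0.82 to -0.08; unadjusted p = 0.0226, adjusted p = 0.265). Smtn encodes smoothelin, which is typical of contractile smooth muscle. Its probe set 1452469_a_at gave 0.810, 0.886 and 0.730 against 0.939 and 1.06, again without overlap, and a log2 fold change of -0.31 ± 0.15 (adjusted p = 0.397). Lmod1 encodes leiomodin, which starts new actin filaments in smooth muscle. Its probe set 1427485_at was low in Dox replicates 1 and 2, at 0.648 and 0.667, but Dox replicate 3 stood at 1.06, above both NoDox arrays (1.02 and 0.980). The log2 fold change of -0.38 ± 0.36 had a 95% interval of -1.19 to 0.44.

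Des encodes desmin, the intermediate filament protein of smooth and striated muscle alike, so its values do not stand for smooth muscle alone. Its brighter probe set 1426731_at gave 0.912, 0.696 and 0.893 in Dox against 0.947 and 1.05. Dox replicate 2 was the lowest, while the other Dox arrays lay close under NoDox, and the log2 fold change was -0.27 ± 0.16 (adjusted p = 0.505). The dim probe set 1426732_at, from the same sequence record, put the Dox arrays in another order, at 0.535, 1.41 and 0.925 against 0.899 and 1.10. Its log2 fold change was -0.17 ± 0.50, and the groups overlapped.

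Itga8 encodes the integrin alpha 8 chain, a receptor for matrix ligands on smooth muscle cells and on other mesenchymal cells. Both of its probe sets had a higher mean in Dox, which held for no other member gene. Probe set 1454966_at had ratios of 1.86, 2.02 and 1.49 in Dox against 1.03 and 0.975 in NoDox. Every Dox array lay well above both NoDox arrays, which differed little. On the log2 scale the difference was 0.83 ± 0.17 (95% interval 0.44 to 1.21), or 1.78-fold, with an adjusted p of 0.0634 over all probe sets. With 1 probe set per gene the adjusted p was 0.0369. That call was kept without Dox replicate 2 (0.0378) or Dox replicate 3 (0.0453) and lost without Dox replicate 1 (0.0778), NoDox replicate 1 (0.264) or NoDox replicate 2 (0.296). It was also lost with no variance trend (0.245) and with the trend on the mean log2 ratio (0.297) or on the NoDox level (0.0615). The dimmer probe set 1427489_at, from another sequence record, gave 1.59, 1.35 and 0.947 in Dox against 1.14 and 0.860. It overlapped, because Dox replicate 3 lay between the NoDox arrays, and its log2 fold change was 0.35 ± 0.35 (adjusted p = 0.713).

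**Figure D2:**
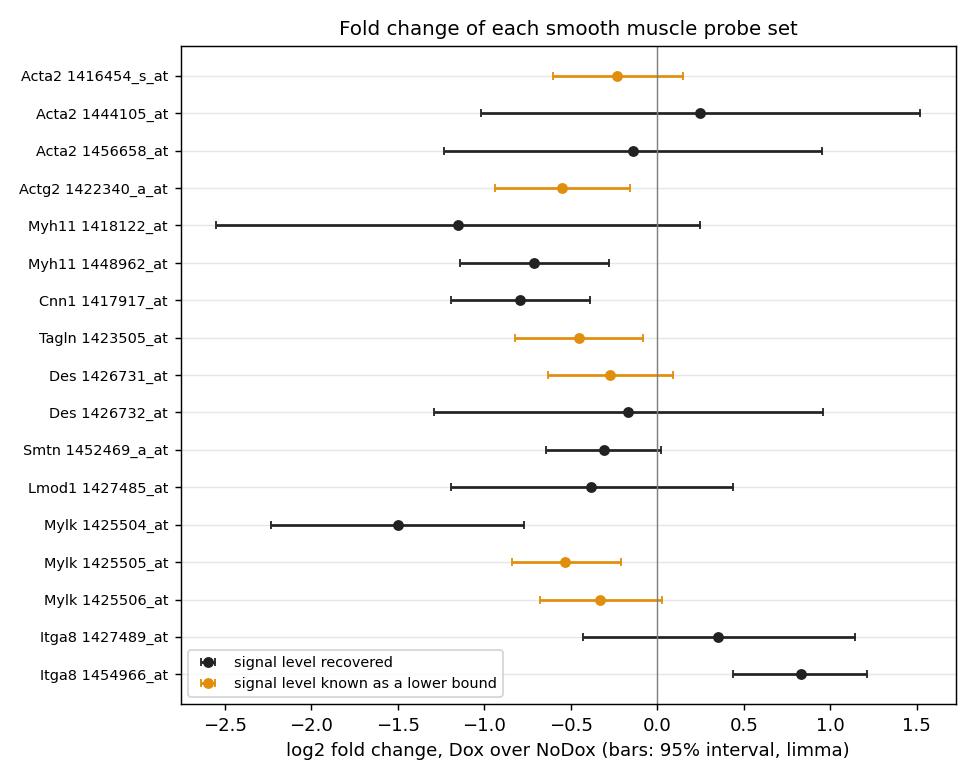
Log2 fold change of Dox over NoDox for each of the 17 smooth muscle probe sets, with 95% intervals from limma over 3 Dox and 2 NoDox arrays; colour tells whether the signal level was recovered (11 probe sets) or is known as a lower bound (6). The intervals of Actg2, Cnn1, Tagln, Myh11 1448962_at, Mylk 1425504_at and Mylk 1425505_at lie below 0 and that of Itga8 1454966_at above 0, before any adjustment for the number of probe sets.

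The 2 NoDox arrays differed from each other in the members. The median log2 ratio of the 17 probe sets was -0.12 in NoDox replicate 1 and 0.11 in NoDox replicate 2, while over all probe sets it was 0.00 in each. In Dox replicates 1, 2 and 3 it was -0.50, -0.31 and -0.45, against -0.07, -0.07 and -0.11 over all probe sets. Every Dox median thus lay below both NoDox medians. Without NoDox replicate 2, 3 members had an unadjusted p under 0.05, against 7 with all arrays and 6 to 8 without each of the other arrays in turn.

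The brightness of a probe set, in the smallest steps of the signal, was read back from the ratios. The fit lets the variance follow this level, so narrower intervals at higher levels are in part built into it. The dimmest members, Myh11 1418122_at (1321 steps), Acta2 1444105_at (1575), Acta2 1456658_at (1735) and Des 1426732_at (2231), had SDs over the Dox arrays of 0.73, 0.46, 0.29 and 0.70 on the log2 scale and SEs of 0.62, 0.56, 0.48 and 0.50. The 6 members whose level is known as a lower bound, at 43635 steps or more, had Dox SDs from 0.05 to 0.23 and SEs from 0.14 to 0.17. Where a gene had a dim and a bright probe set, as Acta2, Myh11, Des and Itga8 did, the bright one had the smaller Dox SD. So it was in Mylk, where the dim 1425504_at (3420 steps) had a Dox SD of 0.28. The bright 1425505_at and 1425506_at (lower bounds of 43635 and 44169 steps) had 0.05 and 0.21.

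**Figure D3:**
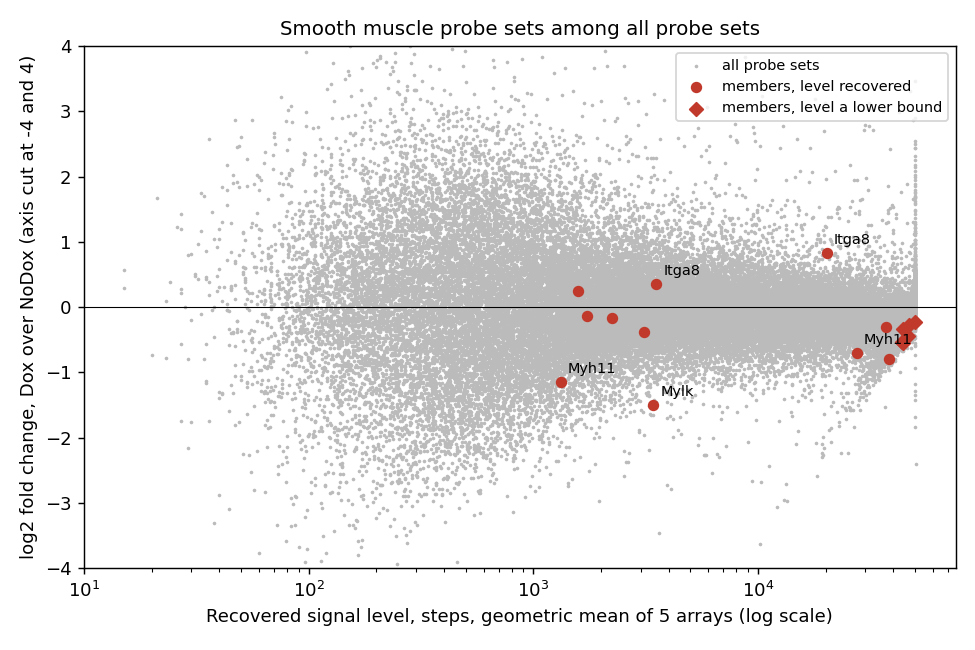
Log2 fold change of Dox over NoDox against the recovered signal level (geometric mean of the 5 arrays, in steps, log scale) for all probe sets in grey and the 17 members in red, with diamonds for levels known as lower bounds. Fold changes spread widely at low levels, where Myh11 1418122_at lies at 1321 steps; the bounds pile up near the search limit of 50000 steps.

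Genes whose ratios over the 5 arrays lay nearest to those of Myh11 and Itga8 were found by the root mean square difference of log2 ratios, among 6257 genes with a recovered level at or above the median. Genes whose level is known only as a lower bound were not candidates. Among the candidates, nearest to Myh11 were Bckdhb (0.0677), P2ry2 (0.0727), Mfsd2a (0.0751), Rdh11 (0.0821) and Cpt2 (0.101), and Cnn1 came 6th (0.107). Myl9, left out by this rule, had ratios of 0.570, 0.756 and 0.577 in Dox and 0.850 and 1.15 in NoDox. Those of Myh11 were 0.564, 0.727 and 0.539 in Dox and 0.857 and 1.14 in NoDox. The distance of Myl9 was not computed. Actg2 stood at 0.156 and Tagln at 0.222 from Myh11, with 31 and 126 of the candidates nearer. Nearest to Itga8 were Ccnb2 (0.0733), C1qc (0.0812), Pla1a (0.0814), Mmp14 (0.0866) and Tmem39a (0.106). The other 9 members were each farther from Itga8 than 4152 or more of the candidates.

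Genes of other proteins of the contractile apparatus and its anchorage were lower in most cases, with none past the threshold. How far these RNAs come from smooth muscle, striated muscle or other cells was not tested. Of 29 genes measured 24 had a log2 fold change under 0 (82.8%, against 57.5% of all genes), and the median was -0.27 against -0.08 for all genes. In limma 0 of the 29 passed in either direction, and 7 had an unadjusted p under 0.05 (24.1%, against 17.2% of all genes), 6 of them lower and 1 higher. The higher one, named after its value was seen, was Actn1, an actin cross-linker, at 0.60 ± 0.17 (adjusted p = 0.118) with all Dox arrays above NoDox. The smallest p-values were those of Hspb6, a small heat shock protein that relaxes smooth muscle, and Myl9, the light chain that the kinase phosphorylates. Hspb6 had ratios of 0.707, 0.613 and 0.719 in Dox against 0.901 and 1.10, and a log2 fold change of -0.55 ± 0.15 (adjusted p = 0.0988 with 1 probe set per gene, as in all lists that follow). Myl9 had ratios of 0.570, 0.756 and 0.577 against 0.850 and 1.15, and a log2 fold change of -0.65 ± 0.18 (adjusted p = 0.113). Neither overlapped between groups, and Myl9 took the same order over the Dox arrays as Actg2, with replicate 2 highest and replicate 1 lowest.

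The transcription regulators of smooth muscle showed no common direction. Of 17 measured, 9 had a log2 fold change under 0 (52.9%, against 57.5% of all genes), and the median was -0.07. Limma called 0, and 2 had an unadjusted p under 0.05 (11.8%, against 17.2% of all genes). Those 2 were both higher. Gata6, a zinc finger factor of visceral and vascular smooth muscle, had ratios of 1.88, 1.63 and 2.30 in Dox against 0.932 and 1.07, and a log2 fold change of 0.94 ± 0.24 (adjusted p = 0.0833). Nkx2-3, a homeobox factor of the gut wall, had ratios of 2.59, 4.12 and 1.68 against 1.48 and 0.521, and a log2 fold change of 1.57 ± 0.52 (adjusted p = 0.170).

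Among 20 genes of ion channels and calcium handling, 12 had a log2 fold change under 0 (60.0%, near the 57.5% of all genes), and the median was -0.26. In limma 0 were called, and 5 had an unadjusted p under 0.05 (as did 17.2% of all genes), all of them lower. Plcb4, a phospholipase C that releases the second messenger for calcium, had ratios of 0.746, 0.560 and 0.606 in Dox against 1.14 and 0.863, and a log2 fold change of -0.65 ± 0.18 (adjusted p = 0.104). Jph2, which holds calcium stores to the surface membrane, had -0.48 ± 0.13 (adjusted p = 0.104), and neither gene overlapped between groups. For this list too, the share that comes from smooth muscle was not tested.

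Markers of other cells were read in the same arrays, and their part in the smooth muscle values was not tested. For comparison with each list, 57.5% of all genes had a log2 fold change under 0 and 17.2% an unadjusted p under 0.05. Limma called 1.34% of all genes higher and 1.12% lower. Of 15 skeletal muscle markers 14 had a log2 fold change under 0 (93.3%), with a median of -0.34, and limma called 1 lower and 0 higher (5, or 33.3%, at unadjusted p under 0.05, all lower). Myh4, a fast myosin heavy chain, fell (-3.06 ± 0.29, adjusted p = 0.00117), and Actn2 stood at -0.63 (adjusted p = 0.130). The Myh4 call was lost with no variance trend (0.117) and with the trend on the mean log2 ratio (0.438). Summed signals weight each gene by its level and so by a lower bound for 13 of these 15 markers and 5 of the 10 members, which gives the brightest genes too little weight. The summed skeletal muscle signal was 0.634 to 0.856 of the NoDox mean in Dox and 0.953 to 1.05 in NoDox. That of the 10 smooth muscle genes was 0.742 to 0.825 in Dox and 0.908 to 1.09 in NoDox. The order of the Dox arrays differed between the skeletal markers and the 10 members. Dox replicate 2 had the lowest median log2 ratio for skeletal muscle (-0.63, against -0.13 and -0.24 in replicates 1 and 3) and the highest for the 10 members (-0.37, against -0.55 and -0.44). The 29 other contractile genes and the 20 ion channel and calcium genes, like the skeletal markers, were lowest in Dox replicate 2. Their medians in Dox replicates 1, 2 and 3 were -0.18, -0.39 and -0.16, and -0.14, -0.47 and -0.19. Des, which both kinds of muscle share, was lowest in Dox replicate 2 in its bright probe set and highest there in its dim one (ratio of 1.41). Some lists of other cells were lowest in Dox replicate 2 as well. Medians in Dox replicates 1, 2 and 3 were -0.15, -0.57 and -0.17 for markers of interstitial cells of Cajal. They were 0.61, 0.05 and 0.54 for endothelial markers. The fibroblast and epithelial markers were instead lowest in Dox replicate 3, at -0.56 and -0.06.

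Of 12 fibroblast markers 11 had a log2 fold change under 0 (91.7%, against 57.5% of all genes), and the median was -0.35. Limma called 0, and 4 had an unadjusted p under 0.05, all lower (33.3%, against 17.2% of all genes). Fbln1 (-0.59, adjusted p = 0.0930) and Thy1 (-0.55, adjusted p = 0.113) had the smallest p-values, and the summed signal (8 levels as bounds) was 0.752 to 0.953 in Dox and 0.967 to 1.03 in NoDox. Of 10 pericyte and mural markers 8 were under 0, the median was -0.21 and limma called 0 (4 at unadjusted p under 0.05, 2 lower and 2 higher). The lower were Kcnj8 (-0.70, adjusted p = 0.126) and Ndufa4l2 (-0.74, adjusted p = 0.160). The higher, named after their values were seen, were Pdgfrb (0.45, adjusted p = 0.192) and Notch3 (0.41, adjusted p = 0.204), both with all Dox arrays above NoDox. The summed signal of the 10 pericyte and mural markers was 0.877 to 1.01 in Dox and 0.991 to 1.01 in NoDox. Of 3 markers of interstitial cells of Cajal, the gut pacemakers, 2 were under 0, with Thbs4 at -0.49 and Ano1 at -0.30, Kit stood at 0.46 with overlap between groups, and limma called 0 (0 at unadjusted p under 0.05). The summed signal was 0.641 to 0.922 in Dox and 0.890 to 1.11 in NoDox. Of 9 enteric neuron and glia markers 5 were under 0, limma called 0 (0 at unadjusted p under 0.05), and Elavl4 (1.05) and Sox10 (0.33) had the smallest p-values. The summed signal was 0.850 to 1.09 in Dox and 0.955 to 1.05 in NoDox.

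The 9 markers of esophageal epithelium, among them Krt4, Krt13 and Krt5, had high levels, each known as a lower bound, and showed no common shift. Levels at or above the median of genes were also found for 15 of 15 skeletal muscle, 12 of 12 fibroblast, 8 of 9 endothelial and 8 of 10 airway and lung markers, so this measure does not single out the esophagus. The epithelial markers had a median log2 fold change of 0.02, limma called 0 (3 at unadjusted p under 0.05, 1 higher and 2 lower), with Krt14 (0.56) and Trp63 (-0.34) of smallest p, and the summed signal was 0.972 to 1.11 in Dox and 0.964 to 1.04 in NoDox. Of 9 endothelial markers 3 were under 0, and the median was 0.41. In limma 4 had an unadjusted p under 0.05, all higher (44.4%, against 17.2% of all genes). Of the 9, 1 was called, Plvap, which rose (0.77 ± 0.16, adjusted p = 0.0472). Its call held without Dox replicate 2 (0.0154) and was lost without each other array (0.0867 to 0.366), and over all probe sets its adjusted p was 0.0797. The Plvap call was also lost with no variance trend (0.267) and with the trend on the mean log2 ratio (0.303) or on the NoDox level (0.0674). Vwf stood at 0.80 (adjusted p = 0.0686), and the summed endothelial signal was 1.11 to 1.45 in Dox and 0.958 to 1.04 in NoDox.

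Of 10 airway and lung markers, with a median log2 fold change of 1.56, 7 had an unadjusted p under 0.05 in limma, all higher (70.0%, against 17.2% of all genes). Those not called were Sftpb (0.94), Scgb1a1 (0.79), Foxj1 (0.55), Scgb3a2 (0.38) and Nkx2-1 (-0.38). Limma called 5 higher, against 1.34% of all genes. They were the surfactant genes Sftpc (2.18), Sftpa1 (2.99) and Sftpd (2.71) with Napsa (2.55) and Ager (2.77). These calls held without any 1 Dox array and were lost without either NoDox array, with adjusted p from 0.0656 to 0.185. The 5 calls were also lost with no variance trend (adjusted p from 0.156 to 0.222) and with the trend on the mean log2 ratio (0.297 for each). The summed lung signal was 2.20 to 5.32 in Dox and 0.967 to 1.03 in NoDox. Itga8, which lung mesenchyme also expresses, rose in the same arrays with 1 probe set per gene. In Dox replicates 1, 2 and 3 the ratios of Itga8 1454966_at were 1.86, 2.02 and 1.49, and those of Itga8 1427489_at were 1.59, 1.35 and 0.947. The lung sum was lowest in Dox replicate 2 (2.20) and highest in Dox replicate 3 (5.32). Whether the Itga8 values come from lung tissue was not tested.

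**Figure D4:**
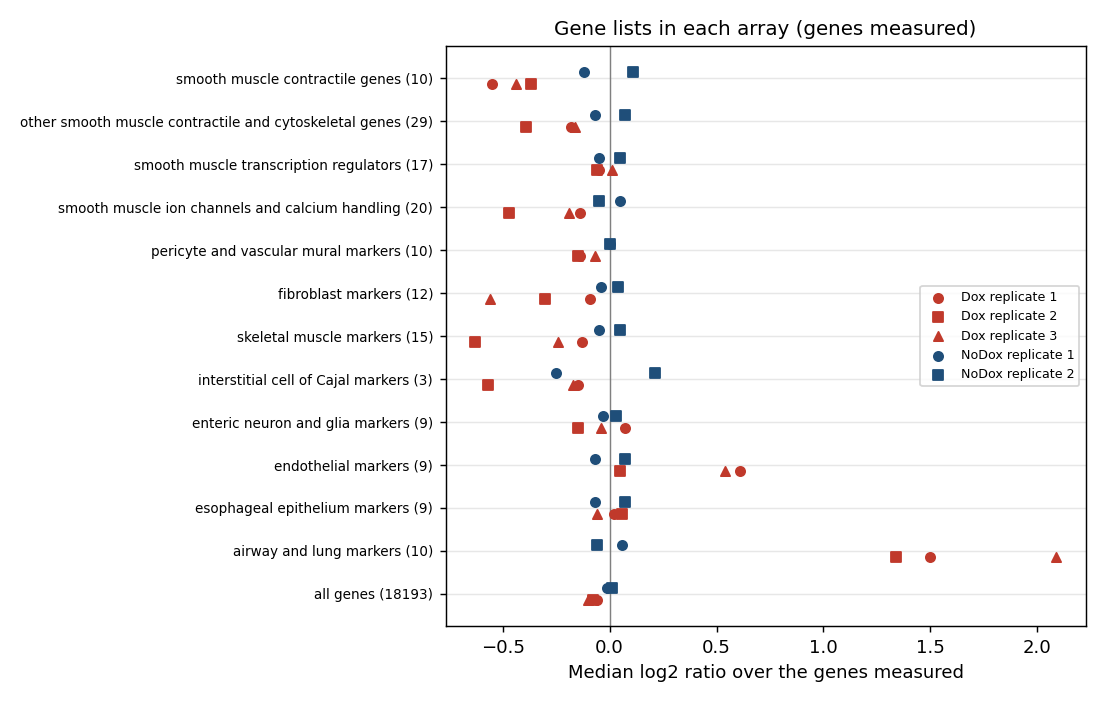
Median log2 ratio in each array over the measured genes of each list, their number in brackets, with red for Dox and blue for NoDox and a symbol for each replicate number. The smooth muscle genes lie between -0.55 and -0.37 in the 3 Dox arrays, the airway and lung markers between 1.34 and 2.09, and all genes between -0.10 and -0.06.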

How the data were processed

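Esophagus RNA was hybridised to Affymetrix arrays, and per the labels' description signals were made with MAS 5.0 and normalized in GeneSpring 7.3.1. The values the authors deposited are a linear ratio, here found to be relative to the mean of the 2 NoDox arrays, since a probe set's NoDox values sum to 2 within 0.0001 in 45099 of 45101 probe sets. A level was read back by searching step numbers up to 50000 that give all ratios within a relative tolerance of 3e-07, after dividing out each array's scale. It was found for 90.2% of probe sets, and for 0.425% with ratios shuffled between probe sets. The rest have a lower bound, which for them follows the fold change. A level whose steps share a divisor is read too low.

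Log2 ratios of 45037 probe sets, without 64 controls, went into limma's lmFit and eBayes (version 3.58.1, under R 4.3.3) with a variance trend on the level, tested two-sided with Benjamini-Hochberg adjustment, and again with the probe set of highest level for each of 18193 genes. No offset or filter was used. The level is the geometric mean over the 5 arrays; the NoDox mean was also fitted, and the counts of both were seen before this choice. The fits have 3 residual and 6.01 and 5.87 prior degrees of freedom. The code was tested on simulated data. A symbol of their own was given to 34945 probe sets, while 932 carry several symbols and 9160 carry none.

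The members and the gene lists were chosen with earlier results of these data known. The named genes are all member probe sets, each list's genes past the threshold and its 2 of smallest p, and the 5 nearest to Myh11 and to Itga8. A list that was also fitted is not reported here. Genes of a list without a probe set of their own were left out, and older symbols were updated through RefSeq. Python 3.11.15, numpy 2.4.6 and pandas 2.3.3 were used for tables and matplotlib 3.10.9 for plots. With 5 arrays, precision is limited by their number. The alternatives tried are given with the closing limits.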

Additional observations from a re-analysis of the deposited data

How the results depend on the processing

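Counts of calls depended on the settings. Over all probe sets 256 were higher and 217 lower. These became 6 and 0 with no trend, 0 and 0 with the trend on the mean log2 ratio (limma), 406 and 442 with array weights, and 469 and 492 at a threshold of 0.1. Lower calls were 114 with quantile normalization and 139 with median centring. Higher calls were 132 with the trend on the NoDox level, an alternative chosen after seeing the data. With an array left out they ranged from 37 to 353 higher and from 6 to 472 lower. With 1 probe set per gene the counts were 243 and 204. They became 6 and 0 with no trend, 0 and 0 with the trend on the mean log2 ratio, 430 and 471 with array weights, and 444 and 468 at 0.1. Lower calls were 102 with quantile normalization, 134 with median centring and 116 with the probe set of highest mean log2 ratio. Higher calls were 143 with the trend on the NoDox level. With an array left out the ranges were 45 to 361 higher and 11 to 452 lower. Where a NoDox array is left out, the lone one is assumed to vary like the Dox arrays.

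Over all probe sets 0 members were called. Itga8 1454966_at was called with median centring, array weights and 1 probe set per gene, 1 member higher each time. Mylk 1425504_at was called with array weights, the level filter and the trend on the NoDox level, 1 lower each time. At a threshold of 0.1 there were 1 higher and 2 lower, Cnn1 and Mylk 1425504_at. Over all probe sets 0 were called with any 1 array left out. The titles number the arrays 1 to 3 and 1 to 2. Same-numbered deviations correlated at 0.0125 and 0.0172 over 2 pairs, which does not show that the numbers pair the arrays. With the replicate block, in which Dox replicate 3 has no partner, 408 probe sets were higher and 429 lower, 1 member higher (Itga8 1454966_at) and 1 lower (Cnn1), and with 1 probe set per gene 367 genes lower and 3 members past the threshold (Itga8 higher, Myh11 and Cnn1 lower). Signs turned in dim probe sets. Acta2 1444105_at ranged from -0.24 (without NoDox replicate 2) to 0.74 (without NoDox replicate 1), with -0.01 without Dox replicate 2. Acta2 1456658_at went to 0.03 with the replicate block or without Dox replicate 3 and ranged from -0.35 (without NoDox replicate 1) to 0.07 (without NoDox replicate 2). Des 1426732_at ranged from -0.50 (without Dox replicate 2) to 0.20 (without Dox replicate 1). The cause was not tested.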
